A study of Mus musculus with 23 samples.

Results

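This series of mouse macrophages was searched for genes near its knocked-out genes, and 10 were followed. They lie in 2 chromosome regions, 5 around Mapkapk2 on chromosome 1 and 5 around Mapkapk3 on chromosome 9. Around Mapkapk2 these were Ctse, Chil1, Steap3, Insig2 and Ddx18, and around Mapkapk3 they were Abhd14b, Abhd14a, Wdr82, Hemk1 and Ccdc71. A gene was included if its array probes carried its RefSeq accession, if it lay within 50 protein-coding genes of Mapkapk2 or Mapkapk3 in the order of the RefSeq gene table, and if it had differed between genotypes in earlier tests of these same arrays. The 10 genes were read by 15 of 32885 probes with an accession and stood among 26014 genes in all. Because the differences between genotypes chose the genes, those differences are given below as a description with their standard errors and without a test. The response to lipopolysaccharide (LPS) within each genotype was not itself a criterion and was tested. It shares its arrays with the genotype comparisons, so its p-values are not independent of the choice.

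Mapkapk2 and Mapkapk3 encode MK2 and MK3, kinases that p38 MAPK activates when LPS is sensed by Toll-like receptor 4 and that act on the stability and translation of inflammatory mRNAs. In mice made by gene targeting, the chromosome stretch beside the targeted gene comes from the embryonic stem cell and can stay with the allele through breeding, so that genes around a knocked-out gene are read with this in mind. The genes themselves have unrelated roles. Ctse encodes cathepsin E, an aspartic protease of endosomes, Chil1 a secreted chitinase-like lectin, Steap3 an endosomal ferrireductase of the transferrin cycle, Insig2 an endoplasmic reticulum protein that retains the sterol sensor of the SREBP pathway, and Ddx18 a DEAD-box RNA helicase of ribosome biogenesis. Abhd14a and Abhd14b encode proteins of the alpha/beta hydrolase fold, Wdr82 a WD-repeat subunit of SET1 histone methyltransferase complexes, Hemk1 a methyltransferase of release factors, and Ccdc71 a coiled-coil domain protein.

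Bone marrow-derived macrophages (BMDM) of wild-type (wt), MK2-/- and MK2/3-/- mice were studied. MK2-/- mice are deficient for MK2 and MK2/3-/- mice for both MK2 and MK3, and no mouse lacking Mapkapk3 alone was on these arrays. All cells came from C57BL/6 mice of 10 to 14 weeks labelled male, were grown with M-CSF, and received either medium or 100 ng/ml LPS for 120 min. The RNA of 23 samples was hybridized to 1-colour Agilent arrays, 4 per group and 3 for MK2-/- medium. All arrays of a genotype shared 1 scan date, which differed between genotypes. Genotype, scan date and the chromosome stretch inherited with a targeted allele therefore cannot be told apart, while the LPS response was read within 1 scan date. The bulk RNA cannot tell a gene expressed in fewer cells from less RNA per cell.

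The label of BMDM was checked with marker genes. All 5 measured macrophage markers (Adgre1, Itgam, Csf1r, Fcgr1 and Mertk) were well above background on 23 of 23 arrays, and markers of other cell types were above it too. Among T cell markers this held for Cd3e on 23 arrays, Cd4 on 21, Cd3g on 2 and Cd8a on 0, and the neutrophil markers S100a8 and Elane, the dendritic cell marker Flt3 and the collagen gene Col1a1 were above background on 23 arrays each. None of the 30 measured markers, those of other cell types and of sex included, passed the adjustment in any of the 6 genotype comparisons, and the summed signal of the 3 fibroblast markers ranged widely within groups, for example from 9.57 to 14.43 (log2) on wt medium arrays and from 6.74 to 14.15 on MK2/3-/- medium arrays. The summed osteoclast markers Ctsk and Acp5 were highest among wt arrays on those of replicate 3 described next (13.57 in medium and 13.95 after LPS), beside 11.70 to 13.20 on MK2-/- and 12.24 to 12.49 on MK2/3-/- arrays in medium and 13.00 to 14.26 and 12.75 to 13.60 after LPS. The summed T cell markers were also highest among wt arrays on replicate 3 (10.33 and 10.58). In medium, but not after LPS, so were the B cell and macrophage sums (6.87 and 18.88). The neutrophil, dendritic cell, fibroblast and erythroid sums were highest there in neither treatment. The part of these markers in the results below was not tested. Probes well above background made up 47.5% to 69.1% per array, no probe was saturated, and 2 arrays lacked the scanner's gradient fit.

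Some arrays stood apart from their labels. Both arrays of wt replicate 3, the medium and LPS arrays of 1 culture, read far more Ctse and Chil1 than the other wt arrays, as detailed below. Mapkapk2 was also lowest there among the wt arrays, at 11.49 in medium against 12.28 to 12.64 and at 14.19 after LPS against 14.67 to 15.37, although far above the knockout arrays (8.57 to 9.07 in medium and 11.54 to 12.30 after LPS). MK2-/- LPS replicate 3 went against the label male. It read Xist, the long noncoding RNA of the inactive X chromosome, at 8.34 against 1.59 to 2.07 on the other 22 arrays, and Ddx3y, a gene of the Y chromosome, at 1.83 against 10.21 to 11.39. No MK2-/- medium array came from this culture. Results that change without these arrays are given both ways.

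The targeted genes themselves followed the labels. In log2 signal, Mapkapk2 averaged 12.22 ± 0.51 (SD, n = 4) in wt, 8.91 ± 0.17 (n = 3) in MK2-/- and 8.72 ± 0.16 (n = 4) in MK2/3-/- BMDM in medium. Mapkapk3 averaged 13.50 ± 0.28 in wt and 13.74 ± 0.14 in MK2-/- BMDM, and 11.88 ± 0.22 in MK2/3-/- BMDM. The lower signals passed limma's test (adjusted p = 5.75e-06 and 2.98e-07 for Mapkapk2 in MK2-/- and MK2/3-/-, and 5.74e-05 for Mapkapk3 in MK2/3-/-). Both probes kept a measurable signal in the knockouts, and where they lie relative to the deleted parts is not given in the sources used here.

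RefSeq promoter windows (GRCm38.p6) were found for 9 of the 10 genes, and 3 of them are shown, because Abhd14a and Abhd14b both read lower in MK2/3-/- BMDM and have starts that face away from each other 962 bases apart on chromosome 9, and because Chil1 was the one gene that rose with LPS. Each sequence is the 250 bases before the transcription start, 5′ to 3′ on the gene's strand, and capitals mark matches, on either strand, to the letters CCAAT and GGGCGG. These letters occurred in 33.8% and 32.7% of the 32851 windows of the same length.

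Abhd14a, chr9:106447679-106447928, minus strand: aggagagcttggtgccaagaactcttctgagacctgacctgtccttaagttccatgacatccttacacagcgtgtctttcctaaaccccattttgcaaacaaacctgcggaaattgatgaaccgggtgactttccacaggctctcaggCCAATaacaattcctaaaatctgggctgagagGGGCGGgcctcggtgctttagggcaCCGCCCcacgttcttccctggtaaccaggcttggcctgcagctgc

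Abhd14b, chr9:106448390-106448639, plus strand: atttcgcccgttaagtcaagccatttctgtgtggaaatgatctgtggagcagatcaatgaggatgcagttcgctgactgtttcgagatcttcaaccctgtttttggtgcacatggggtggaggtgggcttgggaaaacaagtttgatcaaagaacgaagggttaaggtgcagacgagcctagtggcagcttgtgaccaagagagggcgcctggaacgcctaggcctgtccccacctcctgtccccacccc

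Chil1, chr1:134181906-134182155, plus strand: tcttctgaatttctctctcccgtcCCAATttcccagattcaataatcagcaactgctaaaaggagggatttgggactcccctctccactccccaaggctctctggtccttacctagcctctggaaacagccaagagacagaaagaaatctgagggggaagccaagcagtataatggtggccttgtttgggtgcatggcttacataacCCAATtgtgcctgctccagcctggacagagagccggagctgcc

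The Abhd14a window held CCAAT 1 time and GGGCGG 2 times, the second GGGCGG on the other strand, whereas the Abhd14b window held neither. The Chil1 window held CCAAT 2 times. TATAAA (12.4% of all windows), TGANTCA (6.75%), GAGGAA (23.3%) and an NF-kappaB-like motif (4.65%) were also searched and matched none of the 3 windows. A match describes letters only.

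Ctse showed the largest difference of the 10 genes. On wt medium arrays 1 to 4 it read 5.05, 6.02, 11.11 and 6.20, on MK2-/- medium arrays 13.11, 12.63 and 12.47, and on MK2/3-/- medium arrays 12.62, 12.15, 12.18 and 12.17. The knockout arrays were thus all above the wt arrays, with wt replicate 3 set apart from the other wt arrays and closest to the knockouts. After LPS the order was the same, with wt arrays at 4.95, 6.01, 10.81 and 5.73, MK2-/- arrays at 12.88, 11.99, 11.88 and 12.38, and MK2/3-/- arrays at 12.30, 11.93, 11.74 and 12.03. The mean difference from wt in medium was 5.64 ± 1.18 (log2, SE) for MK2-/- and 5.18 ± 1.09 for MK2/3-/- BMDM, and without both arrays of wt culture 3 it was 6.98 ± 0.33 and 6.52 ± 0.31. MK2/3-/- and MK2-/- arrays overlapped, in medium and after LPS. Ctse read lower after LPS in each of the 11 cultures with both arrays, by -0.01 to -0.64. The change passed limma's test in no genotype (log2 change of -0.22, -0.45 and -0.28 for wt, MK2-/- and MK2/3-/-, limma adjusted p = 0.954, 0.880 and 0.907). Without wt culture 3 it did not pass either (limma adjusted p = 0.877, 0.375 and 0.550, with an SE of 0.28 to 0.33 in place of 1.09 to 1.18). This test did not pair the arrays of a culture, so its SE includes the spread in Ctse level between cultures. With culture as a block, which took 1 correlation for all genes (0.241), the change passed in no genotype.

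Chil1 read higher in the knockouts than on most wt arrays in both treatments. On wt medium arrays 1 to 4 it read 1.90, 2.22, 5.21 and 1.97, and only the array of culture 3 was well above background, while all MK2-/- medium arrays (4.76, 5.50 and 6.19) and MK2/3-/- medium arrays (5.88, 5.77, 6.99 and 4.30) were. After LPS the wt arrays read 2.28, 3.37, 7.34 and 3.07, again with culture 3 alone well above background, the MK2-/- arrays 9.34, 10.03, 8.97 and 7.39, and the MK2/3-/- arrays 9.39, 9.69, 8.65 and 6.73. The wt culture 3 arrays lay within the range of the knockout arrays, and those of the other wt cultures below it. The mean difference from wt was 2.66 ± 1.07 (MK2-/-) and 2.91 ± 0.99 (MK2/3-/-) in medium and 4.92 ± 0.99 and 4.60 ± 0.99 after LPS. Without wt culture 3 these were 3.45, 3.70, 6.03 and 5.71. These sizes rest on wt signals that were mostly not well above background, so that whether the difference grew with LPS cannot be read from them. With normexp they were 0.59 and 0.65 in medium and 2.53 and 2.29 after LPS.

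**Figure D1:**
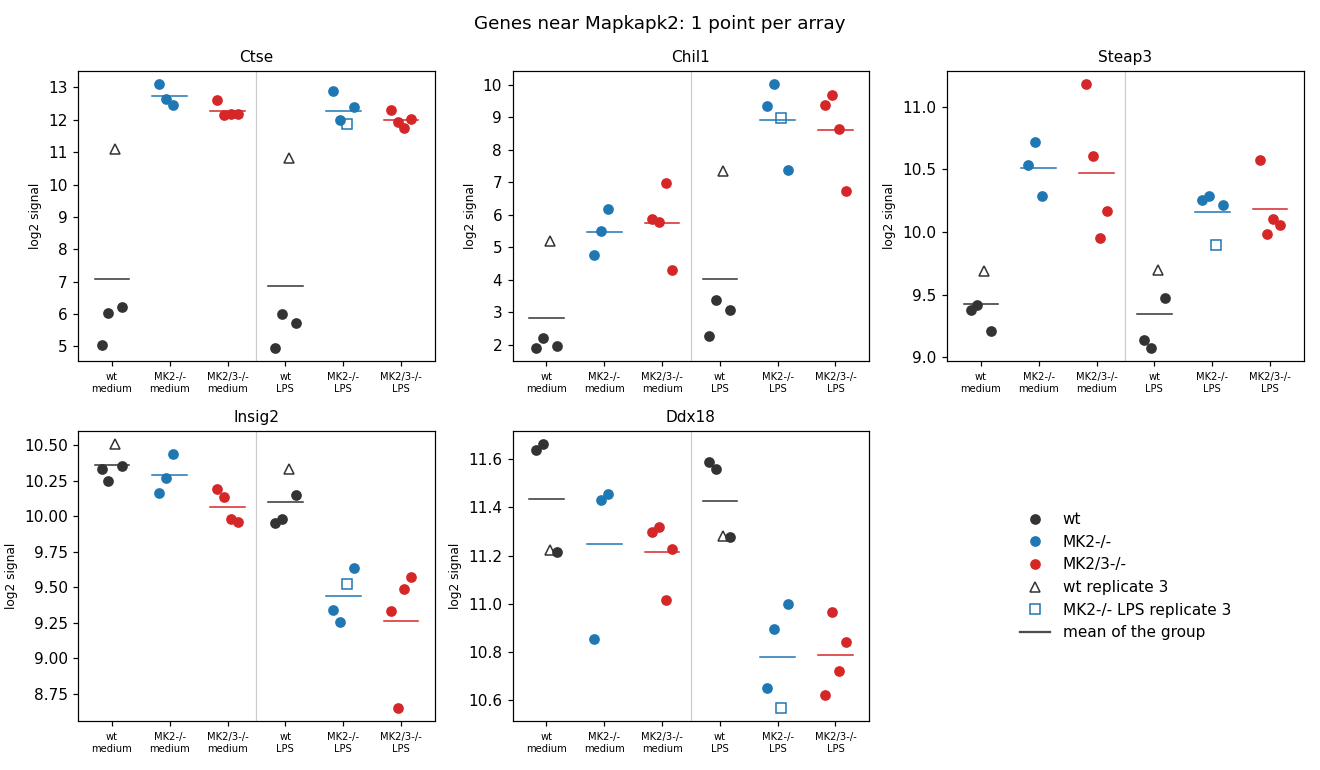
Log2 signal of the 5 genes near Mapkapk2 (y axis) on each of the 23 arrays, by group (x axis), with 1 point per array and a bar at the mean of the group. Open triangles are wt replicate 3, which lies at 11.11 and 10.81 for Ctse, apart from the other wt arrays, and the open square is MK2-/- LPS replicate 3.

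Steap3 was higher in both knockouts by the probe used here, the one with the higher LPS-minus-medium value in wt BMDM (-0.08 against -0.34 for the second probe, so that neither was induced). In medium it read 9.21 to 9.69 on wt arrays, 10.29 to 10.72 on MK2-/- arrays and 9.95 to 11.18 on MK2/3-/- arrays, and after LPS 9.07 to 9.70, 9.90 to 10.29 and 9.99 to 10.58. Wt arrays did not overlap with knockout arrays in either treatment, and the mean differences were 1.09 ± 0.24 and 1.05 ± 0.22 in medium and 0.82 ± 0.22 and 0.84 ± 0.22 after LPS. The second Steap3 probe, which carries the same accession, went the other way. It read 9.62 to 10.82 on 3 wt medium arrays (1 value was missing), 8.68 to 9.96 on MK2-/- and 8.49 to 10.26 on MK2/3-/- medium arrays, and its mean differences from wt were -0.96 ± 0.42 and -1.13 ± 0.39 in medium and -1.03 ± 0.36 and -0.95 ± 0.36 after LPS. The direction of Steap3 therefore depends on the probe, and no direction for the gene is given.

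**Figure D2:**
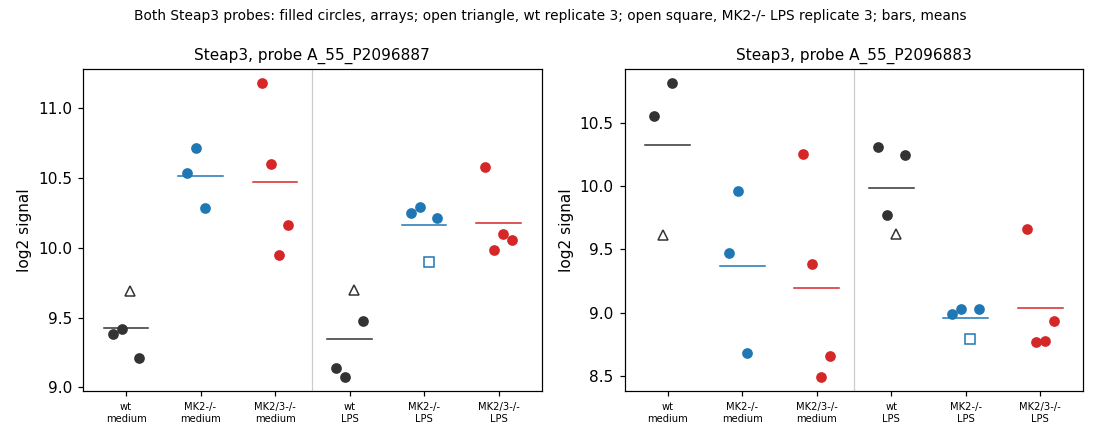
Log2 signal (y axis) of the 2 Steap3 probes on each array by group (x axis), with bars at the group means, open triangles for wt replicate 3 and an open square for MK2-/- LPS replicate 3. The left probe averages 9.42 on wt medium arrays and 10.47 on MK2/3-/- medium arrays, the right probe 10.33 and 9.20.

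Insig2 and Ddx18 hardly differed in medium and were lower in the knockouts after LPS. Insig2 read 10.33, 10.25, 10.51 and 10.36 on wt, 10.17, 10.27 and 10.44 on MK2-/- and 10.19, 10.13, 9.98 and 9.96 on MK2/3-/- medium arrays. After LPS it read 9.95, 9.98, 10.33 and 10.15 on wt, 9.34, 9.25, 9.52 and 9.63 on MK2-/- and 9.33, 8.65, 9.49 and 9.57 on MK2/3-/- arrays, so that every knockout array lay below every wt array. Its mean difference from wt was -0.07 ± 0.18 and -0.29 ± 0.16 in medium and -0.67 ± 0.16 and -0.84 ± 0.16 after LPS. Ddx18 overlapped between genotypes in medium (10.85 to 11.66 over all arrays), and after LPS it read 11.28 to 11.59 on wt, 10.57 to 11.00 on MK2-/- and 10.62 to 10.97 on MK2/3-/- arrays, again without overlap between wt and knockouts. The mean differences of Ddx18 from wt after LPS were -0.65 ± 0.16 and -0.64 ± 0.16. The second probes of Insig2 and Ddx18 were also lower after LPS, by -0.44 and -0.48 for Insig2 and by -0.62 and -0.46 for Ddx18.

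Counted together, the genes near Mapkapk2 separated wt from both knockouts but not the knockouts from each other. In medium the arrays did not overlap for 2 of 5 genes between MK2-/- and wt (7.02% of all genes) and for 3 of 5 between MK2/3-/- and wt (4.07% of all genes). After LPS this held for 5 of 5 in MK2-/- (3.72% of all genes) and for 4 of 5 in MK2/3-/- BMDM (5.81% of all genes), the exception being Chil1 through wt culture 3. Between MK2/3-/- and MK2-/- it held for 0 of 5 in medium (6.44% of all genes) and 0 of 5 after LPS (5.14% of all genes). Without wt culture 3 the counts against wt in medium were 3 of 5 and 4 of 5, with Chil1 added in both, and that for MK2/3-/- after LPS was 5 of 5. These counts restate the choice of the genes and the comparisons share the wt arrays. They hold for the probes used. By their second probes, Steap3 and Insig2 overlapped between wt and both knockouts in medium, and between wt and MK2/3-/- BMDM after LPS.

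The genes near Mapkapk3 were spread the other way, with MK2/3-/- set apart from both wt and MK2-/-. Between MK2-/- and wt 0 of 5 genes separated in medium (7.02% of all genes) and after LPS (3.72%), or 1 of 5 in medium without wt culture 3, Abhd14b. Between MK2/3-/- and wt 4 of 5 did in medium (4.07%) and after LPS (5.81%), and between the knockouts 4 of 5 in medium (6.44%) and after LPS (5.14%). These counts hold for the probes used. By its second probe, Hemk1 overlapped between MK2/3-/- and both other genotypes after LPS. Abhd14b showed the largest difference of the genes near Mapkapk3. In medium it read 10.69, 10.89, 11.10 and 10.81 on wt, 11.23, 11.01 and 11.20 on MK2-/- and 7.91, 7.54, 6.68 and 7.05 on MK2/3-/- arrays, and after LPS 10.12, 9.90, 10.58 and 10.39 on wt, 10.70, 10.17, 10.67 and 10.67 on MK2-/- and 7.93, 6.40, 6.18 and 6.58 on MK2/3-/- arrays. Every MK2/3-/- array thus lay below every array of the other genotypes, the highest at 7.93 and the lowest of the others at 9.90. The mean difference of MK2/3-/- BMDM from wt was -3.58 ± 0.31 in medium and -3.47 ± 0.31 after LPS, and from MK2-/- BMDM -3.85 ± 0.33 and -3.78 ± 0.31.

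Abhd14a, the next gene, was lower in MK2/3-/- BMDM by less and with a wider spread between cultures. In medium it read 10.31, 8.41, 9.48 and 9.42 on wt, 9.02, 8.32 and 9.23 on MK2-/- and 6.07, 5.94, 7.36 and 7.62 on MK2/3-/- arrays, and after LPS 10.18, 8.40, 9.42 and 9.84 on wt, 8.99, 8.50, 9.60 and 8.74 on MK2-/- and 6.18, 5.93, 7.20 and 7.54 on MK2/3-/- arrays. The MK2/3-/- arrays did not overlap with the others, and a culture kept its place from medium to LPS, as in wt culture 1 (10.31 and 10.18) and wt culture 2 (8.41 and 8.40). The mean difference of MK2/3-/- BMDM from wt was -2.66 ± 0.49 in medium and -2.75 ± 0.49 after LPS, and that of MK2-/- BMDM -0.54 ± 0.53 and -0.50 ± 0.49. Over the 23 arrays Abhd14a and Abhd14b correlated at r = 0.803, a description in which the genotype groups carry much of the spread.

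Wdr82 and Hemk1 were modestly higher in MK2/3-/- BMDM. Wdr82 read 9.90 to 10.08 on wt, 9.76 to 10.07 on MK2-/- and 10.39 to 10.86 on MK2/3-/- medium arrays, and 9.92 to 10.26, 9.84 to 10.32 and 10.30 to 10.93 after LPS. The MK2/3-/- arrays were above all others in medium and overlapped with MK2-/- arrays after LPS, where 1 MK2/3-/- array read 10.30 and 1 MK2-/- array 10.32. The mean difference of Wdr82 from wt was 0.60 ± 0.14 in both treatments. Hemk1 read 7.96 to 8.29 on wt, 7.95 to 8.19 on MK2-/- and 8.52 to 9.06 on MK2/3-/- medium arrays, and 8.25 to 8.54, 8.13 to 8.36 and 8.65 to 9.05 after LPS. Its mean difference from wt was 0.56 ± 0.13 in medium and 0.45 ± 0.13 after LPS, and the second Hemk1 probe was higher by 1.23 and 0.59.

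Ccdc71 was alone among the genes near Mapkapk3 in differing only after LPS. In medium it read 12.92, 13.07, 13.07 and 13.00 on wt, 12.90, 13.07 and 13.16 on MK2-/- and 13.04, 13.09, 13.24 and 13.09 on MK2/3-/- arrays. After LPS it read 12.53, 12.20, 12.39 and 12.79 on wt, 12.60, 12.40, 12.70 and 12.33 on MK2-/- and 11.76, 11.78, 12.20 and 11.86 on MK2/3-/- arrays. The MK2/3-/- arrays lay below all MK2-/- arrays, whereas against wt the highest of them (12.20) and the lowest wt array (12.20) met. The mean difference of MK2/3-/- BMDM from wt was 0.10 ± 0.13 in medium and -0.58 ± 0.13 after LPS, and the second Ccdc71 probe gave 0.33 and -0.44.

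**Figure D3:**
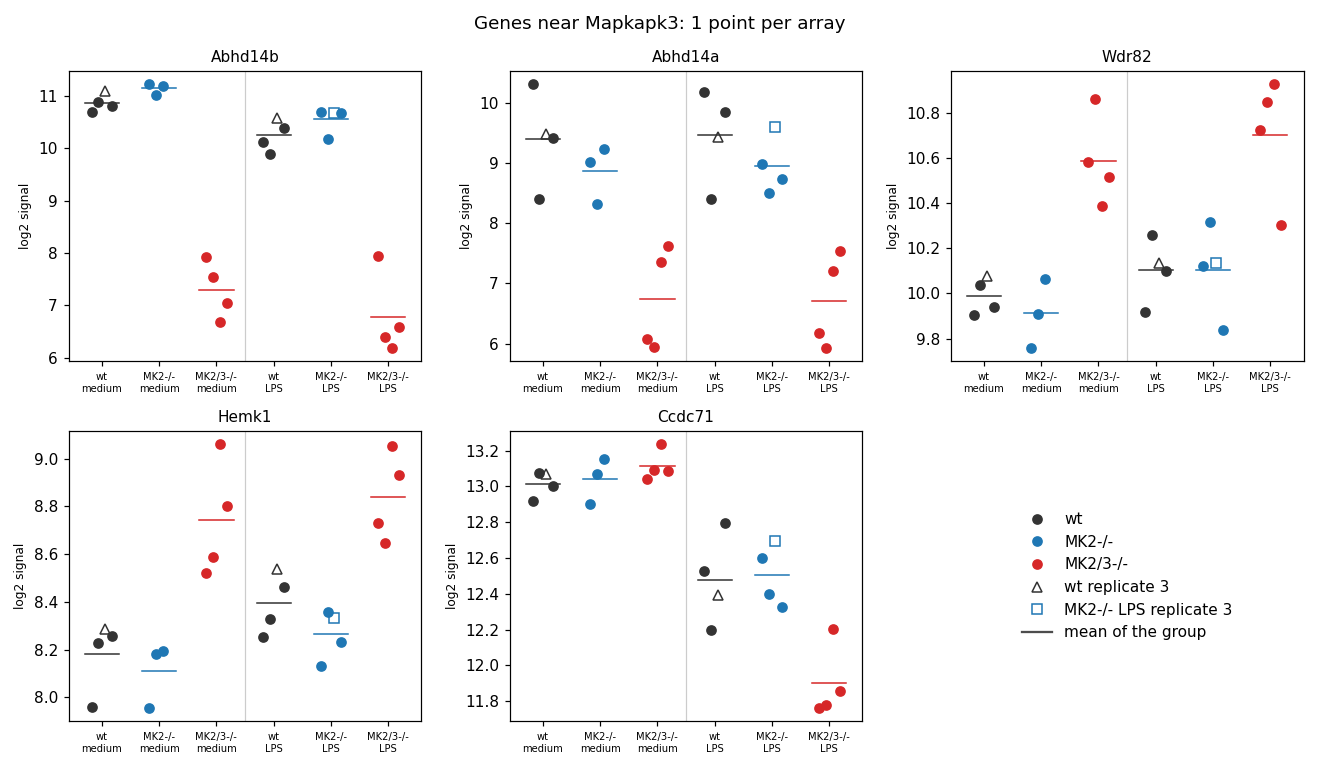
Log2 signal of the 5 genes near Mapkapk3 (y axis) on each array by group (x axis), with 1 point per array and a bar at the group mean. Open triangles are wt replicate 3 and the open square is MK2-/- LPS replicate 3. Abhd14b lies at 6.18 to 7.93 on the MK2/3-/- arrays and at 9.90 to 11.23 on the others, and Ccdc71 is lower in MK2/3-/- BMDM after LPS only.

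The response to LPS was tested within each genotype. The genes were chosen for genotype differences that include the LPS arrays, chiefly so for Insig2 and Ccdc71. These arrays enter the test too, so its p-values and counts are not independent of the choice. In wt BMDM 1 of the 10 genes passed limma's test across all genes (17.1% of all genes did), in MK2-/- BMDM 3 of 10 (18.6% of all genes), and in MK2/3-/- BMDM 3 of 10 (24.9% of all genes). Ccdc71 fell in all 3 genotypes, with a log2 change of -0.54 ± 0.13 for wt (adjusted p = 0.00701), -0.54 ± 0.14 for MK2-/- (0.0114) and -1.21 ± 0.13 for MK2/3-/- (1.06e-06). Without both arrays of wt culture 3 the call in wt was lost (adjusted p = 0.0571). The change in MK2/3-/- BMDM was larger by -0.68 ± 0.19 than that in wt, a value that follows from the genotype difference after LPS and is given without a test.

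Insig2 fell with LPS in both knockouts. Its log2 change reached -0.86 ± 0.18 without MK2 (adjusted p = 0.00154), -0.81 ± 0.16 without both kinases (0.000929) and -0.26 ± 0.16 for wt BMDM (0.356). Every one of the 11 cultures with both arrays changed in this direction, by -0.18 to -0.38 in the wt cultures and by -0.39 to -1.49 in the knockout cultures. Chil1 rose with LPS in both knockouts, by 3.45 ± 1.07 for MK2-/- (adjusted p = 0.0281) and 2.88 ± 0.99 for MK2/3-/- (0.0383), and its change in wt BMDM was 1.19 ± 0.99 (adjusted p = 0.514), where 3 of 4 arrays in each treatment were not well above background. By culture the rise was uneven, at 4.58, 4.53 and 1.20 in MK2-/- and 3.52, 3.93, 1.66 and 2.43 in MK2/3-/- BMDM, and the adjusted p of the MK2-/- change was 0.0513 without MK2-/- LPS replicate 3. With 1 array left out at a time, Chil1 lost its call in 5 settings for MK2-/- and in 6 for MK2/3-/- BMDM.

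Ddx18 missed the threshold, with a log2 change of -0.47 ± 0.17 for MK2-/- (adjusted p = 0.0638) and -0.43 ± 0.16 for MK2/3-/- (0.0551) against -0.01 ± 0.16 in wt BMDM (adjusted p = 0.990). Medium and LPS arrays of 1 culture were paired in these data, and with culture as a block both changes passed (adjusted p = 0.0269 and 0.0170). Without MK2-/- LPS replicate 3 the change in MK2-/- BMDM was -0.40 ± 0.18 (adjusted p = 0.153). Abhd14b had log2 changes of -0.62, -0.60 and -0.52 for wt, MK2-/- and MK2/3-/-, which did not pass (adjusted p = 0.200, 0.252 and 0.246), and its LPS change thus stood beside a genotype difference of over 3 log2 units in both treatments. For Steap3, Hemk1, Abhd14a and Wdr82 the changes lay between -0.35 and 0.21, with adjusted p of 0.349 or more.

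**Figure D4:**
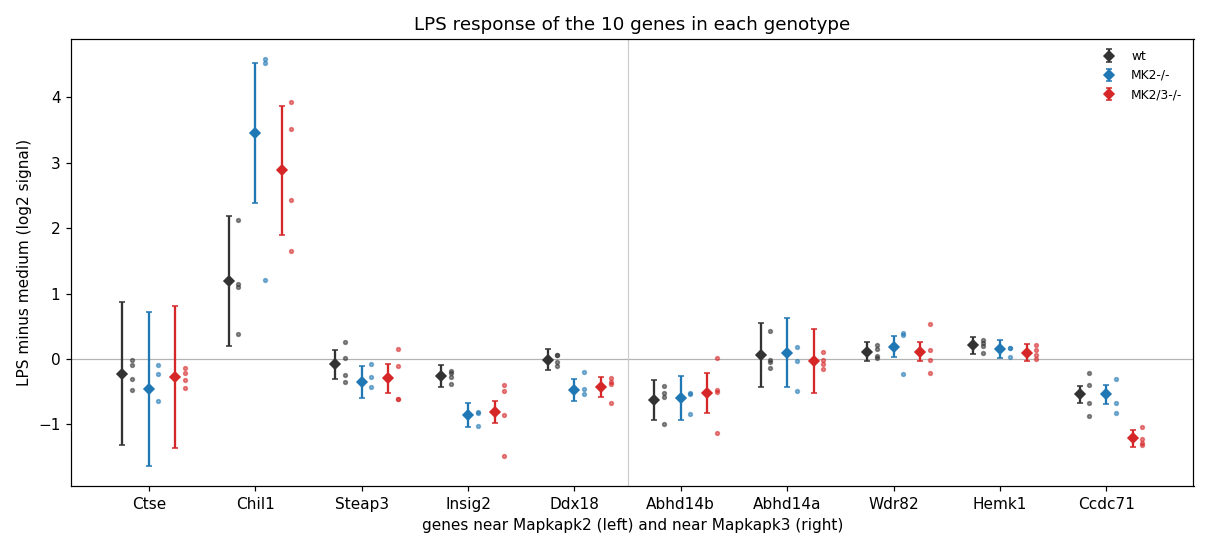
LPS minus medium (log2 signal, y axis) for the 10 genes (x axis) in wt, MK2-/- and MK2/3-/- BMDM. Diamonds are the fitted mean with its SE, small points the single cultures with both arrays (4 wt, 3 MK2-/- and 4 MK2/3-/-). Chil1 lies highest in the knockouts, at 3.45 and 2.88, and Ccdc71 lowest, at -1.21 in MK2/3-/- BMDM.

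With basal level and LPS response set apart, 2 kinds of pattern were seen by the probes used. Ctse, Steap3, Abhd14b, Abhd14a, Wdr82 and Hemk1 differed between genotypes in medium already. Their LPS responses differed between a knockout and wt by 0.27 log2 units or less in size. In MK2-/- and MK2/3-/- BMDM the SE was 1.60 and 1.54 for Ctse, 0.72 and 0.69 for Abhd14a, 0.45 and 0.43 for Abhd14b, and 0.33 and 0.31 for Steap3. Larger differences in response are thus not excluded for these genes. The second Hemk1 probe did not follow this pattern, with an LPS change of -0.54 in MK2/3-/- and 0.11 in wt BMDM. Insig2, Ddx18 and Ccdc71 differed chiefly after LPS, with LPS responses that were lower than in wt by -0.60 ± 0.24 and -0.55 ± 0.23 for Insig2, by -0.46 ± 0.23 and -0.42 ± 0.22 for Ddx18 (MK2-/- and MK2/3-/-), and by -0.68 ± 0.19 for Ccdc71 in MK2/3-/- BMDM. For Chil1 the LPS response differed from that in wt by 2.26 ± 1.46 and 1.69 ± 1.40, and by 2.58 ± 1.04 and 2.01 ± 1.01 without wt culture 3, against wt signals mostly not well above background.

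The genes lay at various distances from the targeted genes. Counted in protein-coding genes from Mapkapk2, Ctse was the eighth on the higher-coordinate side and Chil1 the 48th, whereas Ddx18, Insig2 and Steap3 lay 35, 38 and 42 genes away on the other side. From Mapkapk3, Hemk1 was 2 and Ccdc71 50 genes away on the higher-coordinate side, and Abhd14b, Abhd14a and Wdr82 lay 17, 18 and 27 genes away on the other. Just beyond the limit of 50 genes, Myog (51 genes from Mapkapk2) differed from wt by -0.06 and -0.15 in medium and Lamb2 (51 genes from Mapkapk3, next to Ccdc71) by -0.59 and -0.35.

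The other genes of both neighbourhoods are those left after the differing genes had been picked, so that few calls among them follow in part from the choice. Of the 93 other measured genes around Mapkapk2, 0 passed limma's adjustment in medium for MK2-/- (0.00769% of all genes did) and MK2/3-/- against wt (0.0769%) or for MK2-/- against wt after LPS (0.0308%), and 4 passed for MK2/3-/- against wt after LPS (1.64%). Over all 98 genes, the picked ones included, 8 passed in that last comparison (8.16%). They include Insig2, Ddx18, Ctse and Chil1, which were picked for such differences, so nothing is read from that share. Between the knockouts 0 passed in medium (0.0461% of all genes) and after LPS (0.161%). The 4 other genes that passed for MK2/3-/- against wt after LPS were Yod1, Tmcc2, Tmem81 and Il10. Yod1, Tmcc2 and Tmem81 stood at -1.14, -2.08 and 0.93. Il10, an anti-inflammatory cytokine gene and the immediate neighbour of Mapkapk2, stood at -3.22 ± 0.47 (limma adjusted p = 0.00158). The next gene, Il19, which encodes a cytokine of the same family, differed from wt after LPS by 0.51 and 0.30, and Il20 was well above background on 0 arrays. Il10 did not differ detectably in medium (5.82, 6.01 and 6.14 on average in wt, MK2-/- and MK2/3-/- BMDM). The largest difference in medium was that of Kiss1 in MK2-/- BMDM, 3.09 ± 0.99 (adjusted p = 1), a gene well above background on 4 arrays. On the other side of Mapkapk2 the nearest genes Dyrk3, Eif2d and Rassf5 differed from wt in medium by 0.24 or less, and the median size of the difference over the 93 genes was 0.19 (MK2-/-) and 0.16 (MK2/3-/-) in medium, beside 0.17 and 0.18 over all genes.

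Around Mapkapk3, 1 of the 92 other measured genes passed for MK2/3-/- against wt after LPS (1.09%, beside 1.64% of all genes) and 0 in the other comparisons. Over all 97 genes, the picked ones included, 5 passed in that comparison (5.15%), among them Wdr82, Abhd14a, Abhd14b and Ccdc71. In medium 2 of the 97 passed for MK2/3-/- against wt (2.06%, beside 0.0769% of all genes), Abhd14a and Abhd14b. Between the knockouts 1 passed in each treatment (1.03%), Abhd14b. These genes were picked for such differences, so nothing is read from the shares over all 97. The 1 gene of the 92 others that passed was Pcbp4, which encodes a KH-domain RNA-binding protein and lies next to Abhd14b. Pcbp4 read 10.38, 8.84, 9.40 and 9.16 on wt, 9.30, 8.84 and 9.48 on MK2-/- and 6.26, 6.24, 7.09 and 8.20 on MK2/3-/- medium arrays. All MK2/3-/- medium arrays were below all others, whereas after LPS the groups overlapped, with 1 MK2/3-/- array at 8.35 and the lowest wt array at 8.06. Its mean difference from wt was -2.50 ± 0.54 in medium (adjusted p = 0.156) and -2.25 ± 0.54 after LPS (adjusted p = 0.0408), so that 3 genes in a row, Abhd14a, Abhd14b and Pcbp4, read lower in MK2/3-/- BMDM. The measured genes on either side of this run had smaller differences in the same direction that did not pass, Acy1 (above background on 14 arrays) at -0.80 in medium and -1.30 after LPS and Parp3 at -0.86 and -0.82 (both named after their values were seen). Closer to Mapkapk3, Rbm15b and Manf differed from wt by -0.02 and 0.28 in medium, and Dock3 was well above background on 2 arrays. Cish, the next gene on the other side and a feedback inhibitor of cytokine signalling, differed by -1.60 in medium, where its arrays spread from 4.53 to 6.34 in wt and from 2.47 to 4.80 in MK2/3-/- BMDM, and by -0.16 after LPS.

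**Figure D5:**
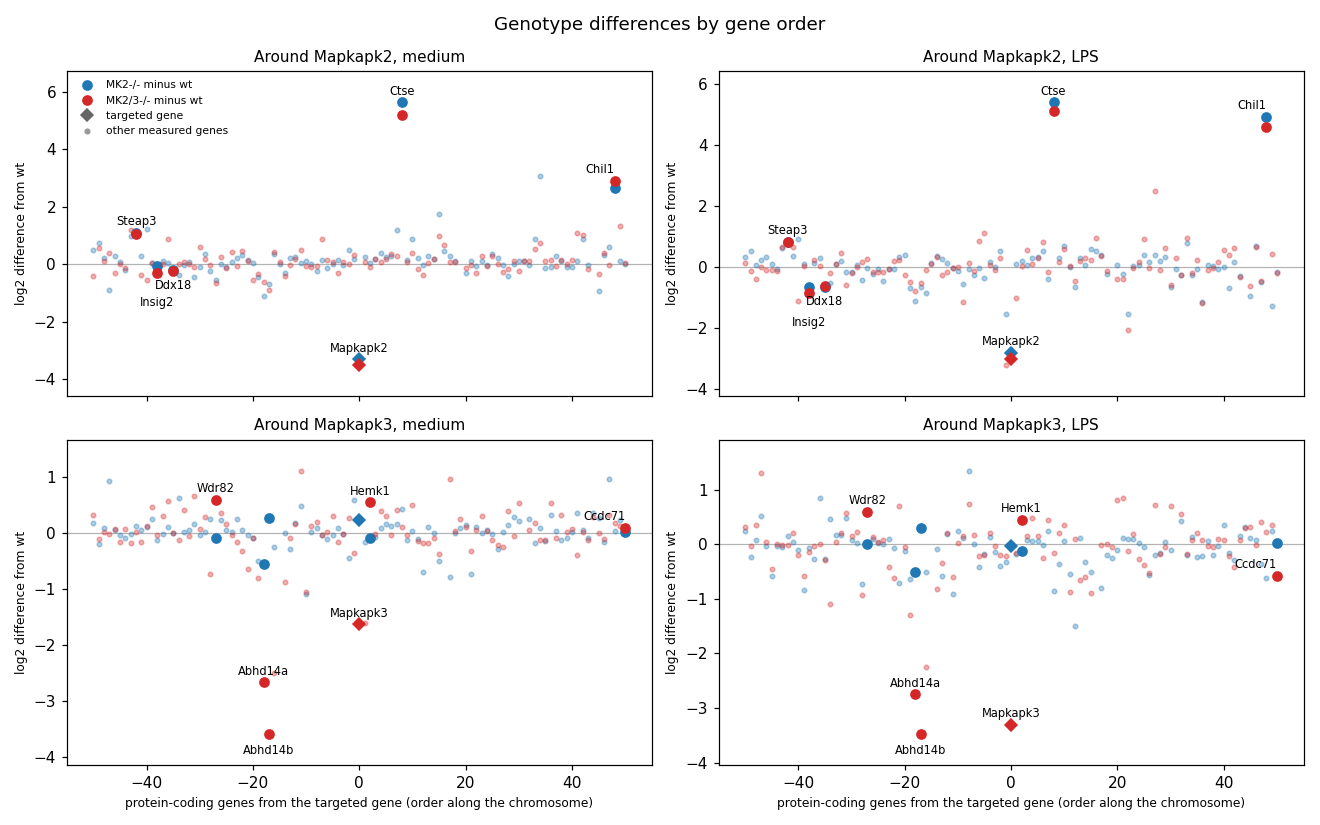
Difference from wt (log2 signal, y axis) of every measured gene within 50 protein-coding genes of Mapkapk2 (top) and Mapkapk3 (bottom), by gene order (x axis), in medium (left) and after LPS (right), for MK2-/- (blue) and MK2/3-/- (red). Large points are the 10 genes, diamonds the targeted genes and small points the other genes. Ctse stands at 5.64 and 5.18 in medium, and Abhd14b at -3.58 in MK2/3-/- BMDM, among neighbours that mostly lie near 0.

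Each of the 10 genes was matched to the gene whose signal followed it most closely over the 23 arrays. The highest Pearson correlation was with Imp4 for Ddx18 (r = 0.864), with Scoc for Insig2 (r = 0.912), with Soat1 for Steap3 (r = 0.848), with Serpinb6d for Abhd14b (r = 0.961), with Arf5 for Wdr82 (r = 0.849) and with Wdr53 for Ccdc71 (r = 0.951), none of them within either neighbourhood. For Ctse, Chil1, Abhd14a and Hemk1 the closest probe carried only an accession without a symbol (r = 0.924, 0.896, 0.953 and 0.817). The probes matched to Abhd14a and Hemk1 were well above background on only 11 and 10 of the 23 arrays. These correlations describe arrays that share groups and scan dates.

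Genes known to work with the 10 were read from lists chosen by function, beside the shares of all genes that passed for LPS, 17.1% (wt), 18.6% (MK2-/-) and 24.9% (MK2/3-/-). Among 12 genes of sterol regulation, the pathway of Insig2, 6 rose and 1 fell with LPS in wt, 5 rose in MK2-/- and 6 rose and 1 fell in MK2/3-/- BMDM, and the median changes were 0.69, 0.82 and 1.03 beside 0.01, -0.01 and -0.02 over all genes. Among 12 genes of iron uptake and release, which Steap3 belongs to, 2 rose and 1 fell in wt and MK2-/- and 2 rose and 2 fell in MK2/3-/- BMDM, with the iron exporter Slc40a1 at -2.14 (adjusted p = 0.000199) and the metalloreductase Steap4 at 2.14 (adjusted p = 0.00687) in wt BMDM. Of the 12 endolysosomal proteases akin to Ctse, 0 passed the test for LPS in any genotype, with median changes of -0.02, -0.16 and -0.01.

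Of 12 ribosome biogenesis genes, to set beside Ddx18, 2 rose and 1 fell in each genotype, among them Nop58 at 1.11 (adjusted p = 0.00925) and Ddx31 at -1.18 (adjusted p = 0.00066) in wt BMDM. Of the 5 measured chitinase family genes 1 rose in each genotype, Chil4 in wt by 1.78 (adjusted p = 0.0143) and in MK2-/- BMDM, and Chia1 in MK2/3-/- BMDM by 2.09 (adjusted p = 0.00148). Of 13 genes of the complexes of WDR82, 1 rose and 2 fell in wt and MK2-/- and 1 rose and 4 fell in MK2/3-/- BMDM, with Tox4 at 0.92 (adjusted p = 0.000158) and Rbbp5 at -0.68 (adjusted p = 0.00268) in wt BMDM. Another list held 7 measured genes of translation termination and release factor methylation, the field of Hemk1. Of these, 1 rose and 1 fell in wt and 1 rose and 3 fell in each knockout. In wt BMDM Trmt112 stood at 0.92 (limma adjusted p = 0.00031) and Mtrf1 at -1.36 (limma adjusted p = 0.00926). Over the 6 genotype comparisons 2 genes of all these lists passed, Ctsl at -0.75 (limma adjusted p = 0.0496) and Nop56 at -1.16 (limma adjusted p = 0.0423). Both passed for MK2/3-/- against wt after LPS, where 1.64% of all genes did, so nothing is read from this count.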

How the data were processed

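Log2 signals were compared on 23 arrays (Agilent SurePrint G3 Mouse v2 8x60K). The deposited scanner files hold intensity values that the authors extracted with Agilent Feature Extraction 11.0.1.1 (processed signal, background subtracted), and the deposited value table holds log2 values that the authors quantile normalized and set to the median of all arrays. Its columns correlated with the values used here at r = 1 (rounded), and it served as an alternative. Here, outlier-flagged and control spots were left out, log2 processed signals were averaged per probe and quantile normalized (R 4.3.3, limma 3.58.1), and of 55681 probes only the 32885 carrying a RefSeq or GenBank accession entered (27509 of 29150 RefSeq probes matched the gene table of GRCm38.p6). As in the study's methods, a gene was read by the probe with the highest wt LPS induction. All 6 groups entered 1 limma fit over 26014 genes with Benjamini-Hochberg adjustment at 0.05. The number of arrays limits the precision. This fit had no term for culture and did not use the pairing of medium and LPS arrays. Its p-values for LPS therefore set the mean change against a spread that includes differences between separately labelled cultures. The procedure was tested on simulated data.

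The 10 genes and the gene lists were chosen with earlier results of these data known. Named beside them were the targeted genes, their 3 nearest measured genes on each side, the other gene with the largest genotype difference in each neighbourhood in medium and after LPS, the 2 genes of each function list with the largest called wt LPS change (not reported here for sterol regulation), and the gene most correlated with each of the 10. Culture numbers follow the replicate numbers and, for MK2-/- medium replicate 3, the submitters' letter and the age of the mouse. Medium and LPS arrays of a culture deviated together from their group means (11 pairs, r of 0.359 to 0.776 over 12570 genes), so that the numbers pair the samples. Alternatives were scaling to the 75th percentile, normexp, other probe rules, filters, a floor of 5, the block, the pair of groups alone, the methods' t-test and leaving out arrays. For normexp the median spot signal was used.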

Additional observations from a re-analysis of the deposited data

Results flagged for a closer look

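Of 60 groups of 4 arrays examined for the 10 genes and the 2 targeted genes, 4 held an array far from the other 3, and chance flags about 1 in 20 groups. Chil1 read 5.21 on wt medium replicate 3, where the nearest other array was at 2.22, and Ctse read 12.62 on MK2/3-/- medium replicate 1, where the nearest was at 12.18. Abhd14b read 10.17 on MK2-/- LPS replicate 2, below the nearest at 10.67. Mapkapk2 read 12.26 on MK2/3-/- LPS replicate 4, above the nearest at 11.65.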

How the results depend on the processing

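With scaling to the 75th percentile, with normexp, with the methods' t-test and without both arrays of wt culture 3 (chosen after seeing the data), 0 of the 10 genes passed for LPS in wt BMDM in place of 1, since Ccdc71 missed the threshold (highest adjusted p = 0.331, with the 75th percentile). That scaling also took the calls of Ccdc71 in MK2-/- (0.376) and Chil1 in MK2/3-/- BMDM, and the t-test those of Chil1 (0.0731) and Insig2 (0.0531) in MK2/3-/- BMDM. Leaving out 1 array at a time gave 1 gene throughout for wt and 2 to 4 genes for each knockout. Chil1 then lost its call in 5 settings for MK2-/- (adjusted p of 0.00702 to 0.11 over all arrays left out) and in 6 for MK2/3-/- BMDM (0.0106 to 0.121), and Ccdc71 lost its call for MK2-/- BMDM without MK2-/- medium replicate 3 (0.0587). With culture as a replicate block, the Ddx18 changes passed (adjusted p = 0.0269 and 0.0170) and no other call changed. Steap3 turned sign after LPS with the mean over its probes (-0.11 for MK2-/- and -0.060 for MK2/3-/-) and with the other probe (-0.96 and -1.13 in medium, -1.03 and -0.95 after LPS), because the probes disagree. Insig2 between the knockouts in medium turned from -0.22 to 0.0068 with the 75th percentile, a scaling that moved the median of all genes there by 0.18. The cause was not tested. Over all alternatives, 1003 LPS responses kept their side of the threshold, 20 lost their call and 12 gained one (11 of Ddx18, and Abhd14b in MK2/3-/- BMDM without MK2/3-/- LPS replicate 1, adjusted p = 0.00933). Of the genotype differences, 1970 stayed within the replicate spread, 33 moved beyond it and 7 turned sign. The number of all genes past the adjustment for MK2/3-/- against wt after LPS was 427, and 6 when the fit held that pair of groups alone, 608 when dim probes were left out. For MK2-/- against wt after LPS it was 8, 1 with that pair alone and 21 without wt culture 3. Signal at background limits Chil1 in wt BMDM.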
